A study of Mus musculus with 12 samples.

Results

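TRIM proteins are a family of ubiquitin ligases built on a RING finger, B-box zinc fingers and a coiled coil. The genes described here are those on the array whose symbol is Trim followed by a number. Of 18193 genes measured, 58 met this rule, from 111 probe sets that carried a Trim symbol alone. For each gene the probe set with the highest mean signal over the 12 arrays was read, whatever it did between the groups. Another 5 probe sets carried a Trim symbol together with a second gene symbol and were not members.

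The 4 groups were LPS-stimulated ΔTrspM BMDMs, unstimulated ΔTrspM BMDMs, LPS-stimulated control BMDMs and unstimulated control BMDMs, with 3 arrays each. BMDMs are macrophages grown from bone marrow cells, here with M-CSF over 7 days, and LPS, a ligand of TLR4, was given for 4 h. All donors were female c57bl6 mice with floxed Trsp, the gene of the selenocysteine tRNA on which selenoprotein synthesis depends. ΔTrspM mice were Trspfl/fl-LysM-Cre+/- and deleted Trsp through a Cre driven by the lysozyme M promoter, while controls were Trspfl/fl-LysM-Cre-/- and carried the floxed gene without Cre. The lysozyme M promoter is active in macrophages and other myeloid cells. Trsp was not analysed here, so the genotype labels were not checked against the deleted gene itself.

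In the tripartite motif family the RING finger recruits the ubiquitin-charged enzyme, and the C-terminal domain chooses the target. A large class ends in a PRY-SPRY domain and includes antiviral factors that bind viral capsids, antibody-coated particles or sensors of viral RNA. Other classes end in a PHD finger and bromodomain, which read chromatin, or in NHL repeats, which bind RNA and protein partners. In macrophages several TRIM genes belong to the interferon response that follows TLR4 signalling.

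The arrays were of unequal brightness, with a mean deposited signal of 199.7 to 675 in the LPS-stimulated ΔTrspM group, 575 to 847 in the unstimulated ΔTrspM group, 492 to 861 in the LPS-stimulated control group and 734 to 771 in the unstimulated control group. The dimmest was LPS-stimulated ΔTrspM replicate 2, on which the deposited signal of 47.7% of probe sets was below 16 (the range elsewhere was 16.1% to 28.8%). All values below are log2 of the quantile-normalized signal plus 16, a scale that shrinks the differences of dim genes. Each of the 10 macrophage markers, Lyz2 and Csf1r among them, had a mean above 6 on this scale. So did 9 of 10 stromal and 7 of 8 measured neutrophil markers, so this level does not single out macrophages. Each of 10 LPS response genes rose in both genotypes, by a median of 5.87 in ΔTrspM and 5.19 in control BMDMs. Unstimulated control replicate 2, which its title calls untreated, stood apart, and the cause was not tested. Of 26 measured interferon-stimulated genes, 25 were more than 1 log2 unit above the mean of the other 2 arrays of its group, with a median gap of 3.27, against 642 of all 18193 genes and a median gap of -0.05. Of the 10 LPS response genes 7 were more than 1 log2 unit above that mean, with a median gap of 1.67. Without this array their median rise in control BMDMs was 6.04. Over the 58 TRIM genes the median gap was 0.03, and 5 of them exceeded 1 log2 unit, 4 of which were chromosome 7 paralogues. These 5 were all among the 12 TRIM genes that rose with LPS in ΔTrspM, over which the median gap was 0.94. TRIM calls that changed without that array, and the values of the paralogues, are therefore given with and without it.

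LPS moved 21 of the 58 genes in at least 1 genotype, and the same set of genes rose in both genotypes. In ΔTrspM BMDMs 12 of the 58 TRIM genes (20.7%) were higher after LPS at an adjusted p under 0.05 in limma, where 7.29% of all genes were higher, and 8 (13.8%) were lower, where 8.51% of all genes were lower. In control BMDMs 12 were higher, beside 7.09% of all genes, and 7 were lower (12.1%), beside 8.54% of all genes. The 12 genes that rose were the same in both genotypes, namely Trim30a, Trim30d, Trim34a, Trim12a, Trim12c, Trim21, Trim25, Trim26, Trim14, Trim13, Trim56 and Trim36. The 2 comparisons share no arrays, but their calls are not independent. They use a common estimate of the spread, and same-numbered arrays of compared groups correlated (0.126 to 0.442). Without unstimulated control replicate 2, 13 were higher and 7 lower in ΔTrspM, beside 7.24% and 8.23% of all genes, and 12 were higher and 4 lower in control BMDMs, beside 6.62% and 7.33%, and these included all 12. In bulk BMDM cultures fewer cells of a type and less RNA per cell cannot be told apart. Across the whole family the median log2 fold change was -0.12 in ΔTrspM and 0.10 in control BMDMs, beside -0.03 and -0.05 over all genes. By the sign of the difference 24 TRIM genes were higher and 34 lower with LPS in ΔTrspM, where 47.8% and 52.2% of all genes were, and 34 were higher and 24 lower in control BMDMs, where 46.5% and 53.5% were. Signals of the LPS-stimulated and unstimulated arrays did not overlap for 15 higher and 14 lower TRIM genes in ΔTrspM, where 14.8% and 19.5% of all genes were so, and for 13 higher and 13 lower in control BMDMs, where 14.7% and 19.4% were. By their mean over all arrays 21 of the 58 genes lay under 6, between 4.26 and 5.82, close to the floor of 4 set by the added constant, and 0 of these passed the test.

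**Figure D1:**
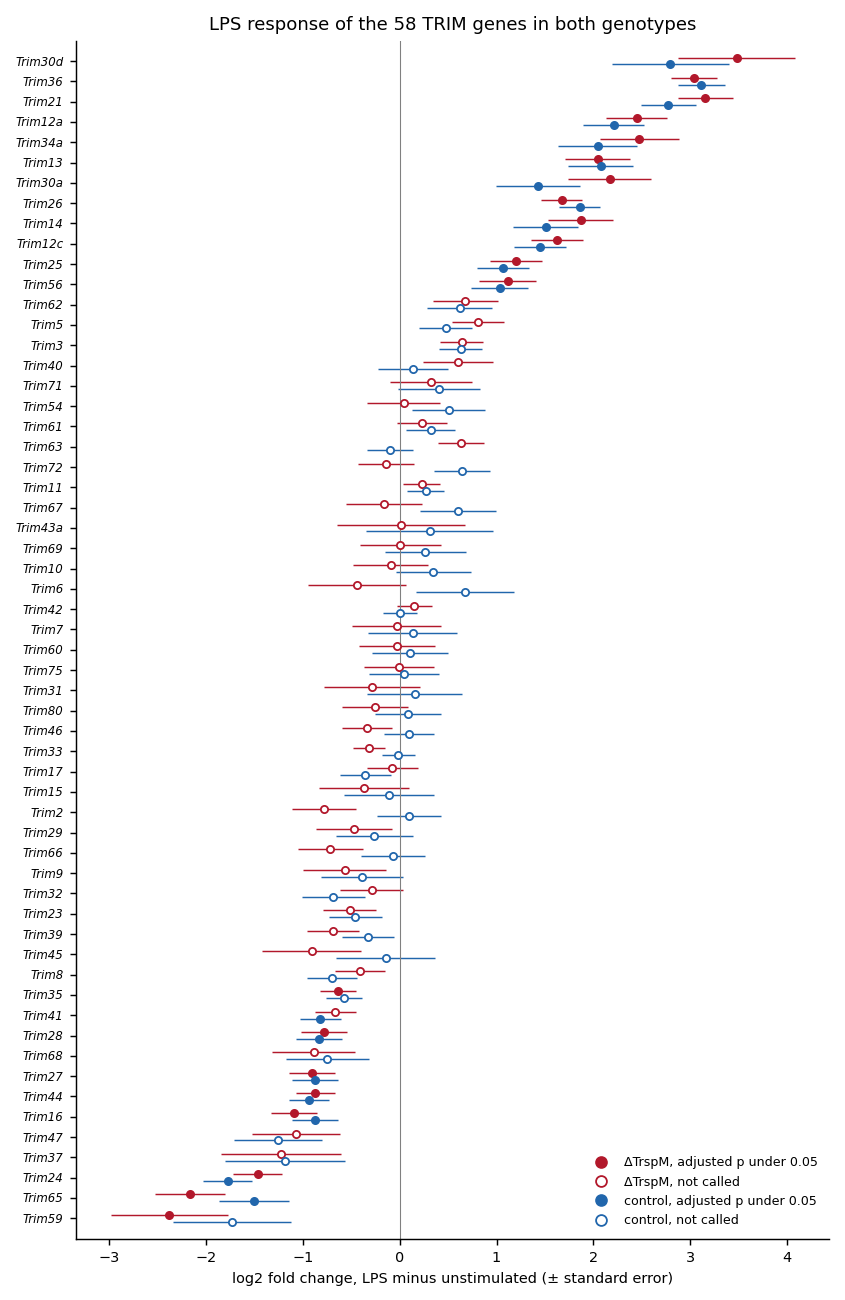
Log2 fold change after LPS (horizontal axis, LPS minus unstimulated, with the standard error of the fit) for each of the 58 TRIM genes, in ΔTrspM (red) and control BMDMs (blue). Filled points passed an adjusted p of 0.05, and the same 12 genes at the top did so in both genotypes, led by Trim30d, Trim36 and Trim21.

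Of the 12 raised genes 6 were neighbours. A stretch of chromosome 7 from 102557920 to 105633574 in GRCm38.p6 (3.08 Mb) holds 10 of the 58 genes, in the order Trim21, Trim68, Trim6, Trim34a, Trim5, Trim12a, Trim12c, Trim30a, Trim30d and Trim3, and 6 of these 10 were higher after LPS in both genotypes. The middle 7, from Trim6 to Trim30d, are copies of an ancestral antiviral gene, the mouse relatives of primate TRIM5, which senses retroviral capsids. Of these 7 paralogues 5 rose in ΔTrspM and 5 in control BMDMs, with a median log2 fold change over the 7 of 2.17 in ΔTrspM and 1.45 in control BMDMs. These medians without unstimulated control replicate 2 were 2.17 in ΔTrspM and 2.02 in control BMDMs, with 6 of the 7 called in ΔTrspM and 5 in control BMDMs. Because copies this alike can share array probes, the value of each is uncertain with regard to the others.

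Promoter sequences are shown for the 9 members that hold the letters GAAA, any 2 bases, then GAAA, read on either strand, which is the core of the element bound by interferon-activated factors. The windows are from RefSeq promoters of GRCm38.p6, which run from 250 bases before to 50 bases after an annotated start, and are printed 5′ to 3′ on the strand of the gene with the matching bases in capitals. On the opposite strand the motif reads TTTC, any 2 bases, then TTTC. The windows lie at chr7:102565433-102565494 (minus strand) for Trim21, chr7:104465195-104465254 (minus) for Trim30a, chr7:104507856-104507915 (minus) for Trim30d, chr7:104315451-104315510 (minus) for Trim12a, chr7:104353344-104353403 (minus) for Trim12c, chr7:104288121-104288180 (minus) for Trim5, chr7:104244442-104244501 (plus) for Trim34a, chr17:36836961-36837026 (plus) for Trim26 and chr3:84212789-84212835 (minus) for Trim2.
Trim21: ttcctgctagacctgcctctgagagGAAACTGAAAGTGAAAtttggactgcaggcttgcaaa
Trim30a: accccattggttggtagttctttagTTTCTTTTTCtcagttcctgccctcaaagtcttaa
Trim30d: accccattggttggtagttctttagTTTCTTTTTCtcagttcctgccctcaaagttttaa
Trim12a: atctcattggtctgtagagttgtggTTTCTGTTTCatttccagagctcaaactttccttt
Trim12c: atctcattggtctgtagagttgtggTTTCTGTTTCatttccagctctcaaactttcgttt
Trim5: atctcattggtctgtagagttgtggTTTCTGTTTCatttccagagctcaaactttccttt
Trim34a: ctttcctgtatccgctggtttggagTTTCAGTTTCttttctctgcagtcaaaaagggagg
Trim26: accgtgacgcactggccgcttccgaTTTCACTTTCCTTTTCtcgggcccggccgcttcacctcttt
Trim2: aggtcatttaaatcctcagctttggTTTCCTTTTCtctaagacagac
The Trim21 and Trim26 promoters each held 2 overlapping matches, joined in capitals above. The windows of Trim12a and Trim5 were identical at 60 of 60 bases, that of Trim12c differed from them at 3 bases, and those of Trim30a and Trim30d differed at 1 base. A second annotated start of Trim30a, at chr7:104446089-104446148, held the same 10 matching bases and was identical to the first at 46 of 60.

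Among the TRIM genes that rose, most promoters in the table held this motif. Of the 58 genes 47 had a promoter in the RefSeq table, and 9 of these 47 held the motif, against 3.99% of all 27025 genes and 3.44% of all 32851 promoters in the table. By their call in ΔTrspM BMDMs they were 7 of the 10 raised genes with a promoter, 0 of 5 lowered genes and 2 of 32 genes not called, which were Trim5 and Trim2. These 7 include the paralogues Trim30a, Trim30d, Trim34a, Trim12a and Trim12c, some with nearly the same window, so they are not 7 independent promoters. The share among all genes raised by LPS was not counted. The raised genes with a promoter but no match in it were Trim25, Trim13 and Trim56. In 8 of the 9 genes the match began within 50 bases of the start, and in Trim26 it began 160 bases before it. The letters GGGA, any 2 bases, then TTCC, a form of the NF-κB site that was also searched on both strands, occurred in 1 TRIM promoter, that of Trim28, against 1.63% of all genes. A match of letters is a description and was not tested as a binding site.

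**Figure D2:**
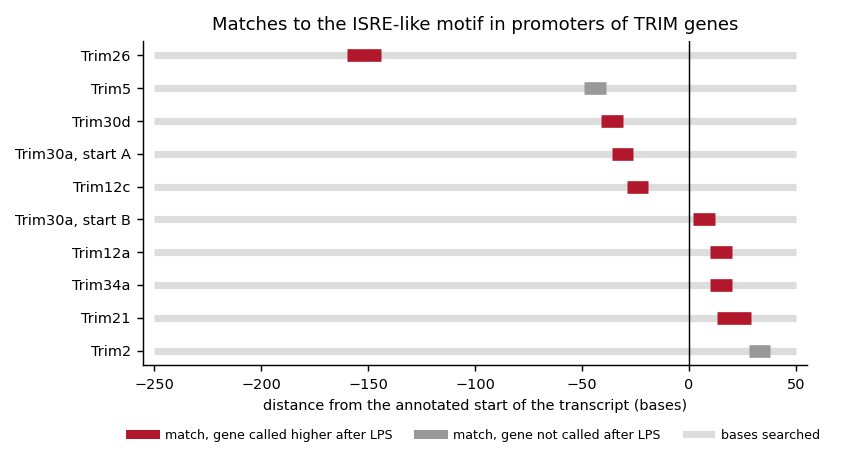
Position of the matches to GAAA, any 2 bases, then GAAA (red and grey blocks) in the 10 TRIM promoters that hold one, along the 300 bases searched (pale bars), as distance in bases from the annotated start. Red marks genes higher after LPS in ΔTrspM BMDMs; the matches run from 160 bases before the start in Trim26 to 38 bases after it in Trim2.

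Trim30d rose most among the paralogues. This close copy of Trim30a is less studied than its neighbour. It measured 11.98, 12.48 and 12.40 on the LPS-stimulated ΔTrspM arrays, against 8.63, 9.09 and 8.70 on the unstimulated ΔTrspM arrays. In control BMDMs it measured 12.86, 12.91 and 12.70 with LPS, against 9.28, 11.93 and 8.89 without. All LPS arrays lay above all unstimulated arrays, and the single high unstimulated value was that of control replicate 2. The log2 fold change was 3.48 ± 0.60 (SE, adjusted p = 0.00295 in limma) in ΔTrspM, which is 11.1-fold, and 2.79 ± 0.60 (adjusted p = 0.00927) in control BMDMs, or 3.74 (adjusted p = 6.04e-06) without unstimulated control replicate 2.

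Trim30a, which in mice restrains TLR signalling through TAB2 and TAB3, gave 12.84, 13.39 and 13.40 in LPS-stimulated ΔTrspM BMDMs, against 11.00, 11.46 and 10.68 in unstimulated ones. In control BMDMs the values were 13.30, 13.39 and 13.40 with LPS, against 11.55, 13.13 and 11.13 without. The ΔTrspM groups were well apart, whereas unstimulated control replicate 2 came close to the LPS-stimulated controls without overlap. The fold change was 2.17 ± 0.43 (adjusted p = 0.00619 in limma) in ΔTrspM and 1.43 ± 0.43 (adjusted p = 0.0454) in control BMDMs, or 2.02 (adjusted p = 0.000949) without that array. The control call was lost when any of the other 11 arrays was left out, at adjusted p-values of 0.0528 to 0.167. A second probe set of Trim30a, and 1 shared with Trim30d, likewise had all LPS arrays above the unstimulated arrays of the same genotype.

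Trim34a, another of the PRY-SPRY copies, measured 11.34, 11.59 and 11.85 in LPS-stimulated ΔTrspM BMDMs, against 9.11, 9.21 and 9.04 in unstimulated ones, and its fold change was 2.47 ± 0.41 (adjusted p = 0.00219 in limma). In control BMDMs it measured 11.93, 12.02 and 12.18 with LPS, against 9.45, 11.22 and 9.33 without, a fold change of 2.05 ± 0.41 (adjusted p = 0.00579), or 2.66 without unstimulated control replicate 2. Neither pair of groups overlapped. Trim12a and Trim12c, the copies nearest to primate TRIM5, both rose. Trim12a averaged 10.59 ± 0.12 with LPS and 8.15 ± 0.24 without in ΔTrspM (SD, n = 3 each), and 11.07 ± 0.21 with LPS and 8.86 ± 0.73 without in control BMDMs. Its fold change was 2.45 ± 0.31 (adjusted p = 0.000498) in ΔTrspM and 2.21 ± 0.31 (adjusted p = 0.000855) in control BMDMs, or 2.63 without unstimulated control replicate 2. The groups did not overlap in either genotype, and the highest unstimulated value, 9.70, was that of control replicate 2. Trim12c averaged 10.69 ± 0.53 with LPS and 9.07 ± 0.13 without in ΔTrspM, a fold change of 1.62 ± 0.27 (adjusted p = 0.00225), and 11.15 ± 0.21 with LPS and 9.70 ± 0.29 without in control BMDMs, a fold change of 1.45 ± 0.27 (adjusted p = 0.00395). Without unstimulated control replicate 2 the Trim12c fold change in control BMDMs was 1.61.

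The remaining paralogues did not pass the test. Trim5 averaged 8.01 ± 0.15 with LPS and 7.20 ± 0.31 without in ΔTrspM (fold change 0.81 ± 0.27, adjusted p = 0.0676 in limma), and 8.36 ± 0.25 with LPS and 7.89 ± 0.50 without in control BMDMs (0.47 ± 0.27, adjusted p = 0.287). In the fit blocked on replicate number Trim5 was called in ΔTrspM (adjusted p = 0.049985), as it was without unstimulated control replicate 2 (adjusted p = 0.0423). Without that array the Trim5 fold change in control BMDMs was 0.73 (adjusted p = 0.0982). Trim6, which makes free ubiquitin chains that activate the kinase IKKε, was dim, at 5.26 ± 0.84 with LPS and 5.70 ± 0.55 without in ΔTrspM and at 5.98 ± 0.30 with LPS and 5.31 ± 0.93 without in control BMDMs, and its groups overlapped. Its fold change in control BMDMs was 0.68, or 1.01 without unstimulated control replicate 2, and was not called in either fit.

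The PRY-SPRY class that holds the paralogues had 21 other measured members. Of these, 3 were raised and 3 lowered in each genotype, and 3 raised and 1 lowered in control BMDMs without unstimulated control replicate 2. Trim21, the cytosolic antibody receptor that ubiquitinates antibody-coated virus, rose most of them. It measured 12.62, 12.23 and 12.77 with LPS, against 9.32, 9.36 and 9.49 without in ΔTrspM, and 12.85, 12.35 and 13.02 with LPS, against 9.64, 10.59 and 9.68 without in control BMDMs. Every LPS array lay more than 1 log2 unit above every unstimulated array of either genotype. The fold change was 3.15 ± 0.28 (adjusted p = 5.46e-05 in limma) in ΔTrspM, or 8.89-fold, and 2.77 ± 0.28 (adjusted p = 0.000102) in control BMDMs. Trim26, encoded in the major histocompatibility region of chromosome 17, averaged 11.05 ± 0.39 with LPS and 9.38 ± 0.09 without in ΔTrspM and 11.35 ± 0.13 with LPS and 9.50 ± 0.12 without in control BMDMs. Its fold changes were 1.67 ± 0.21 (adjusted p = 0.000438) in ΔTrspM and 1.86 ± 0.21 (adjusted p = 0.000203) in control BMDMs, with no overlap. Trim25, which ubiquitinates the viral RNA sensor RIG-I, averaged 12.39 ± 0.16 with LPS and 11.18 ± 0.30 without in ΔTrspM (fold change 1.20 ± 0.27, adjusted p = 0.0118) and 12.37 ± 0.11 with LPS and 11.31 ± 0.55 without in control BMDMs (1.07 ± 0.27, adjusted p = 0.0203). The Trim25 calls were lost without unstimulated ΔTrspM replicate 1 in ΔTrspM (adjusted p = 0.0537), and without replicate 1 or 3 of the unstimulated or replicate 1 or 2 of the LPS-stimulated controls in control BMDMs (adjusted p = 0.0605 to 0.0845). Without unstimulated control replicate 2 both Trim25 calls were kept, with a control fold change of 1.38 (adjusted p = 0.00265 in limma).

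Raised members were also found outside the class of the paralogues. Trim36, a microtubule-binding ligase best known from sperm, belongs to another class with a PRY-SPRY domain and rose in both genotypes. It measured 10.80, 10.59 and 9.98 with LPS, against 7.26, 7.25 and 7.74 without in ΔTrspM, and 10.91, 10.64 and 10.59 with LPS, against 7.61, 7.49 and 7.69 without in control BMDMs. Here unstimulated control replicate 2 was the lowest of its group. The fold change was 3.04 ± 0.24 (adjusted p = 2.21e-05 in limma) in ΔTrspM, or 8.22-fold, and 3.11 ± 0.24 (adjusted p = 1.74e-05) in control BMDMs, or 8.66-fold, and a second Trim36 probe set gave LPS arrays of 10.13 to 10.82 and unstimulated arrays of 7.17 to 7.85. Trim13, a ligase anchored in the endoplasmic reticulum, averaged 10.80 ± 0.43 with LPS and 8.76 ± 0.41 without in ΔTrspM (2.04 ± 0.34, adjusted p = 0.00218) and 10.83 ± 0.24 with LPS and 8.75 ± 0.59 without in control BMDMs (2.07 ± 0.34, adjusted p = 0.0018). Trim14, which has no RING finger and serves MAVS signalling at mitochondria, averaged 11.81 ± 0.12 with LPS and 9.94 ± 0.33 without in ΔTrspM (1.87 ± 0.34, adjusted p = 0.0035). In control BMDMs Trim14 measured 11.97, 12.11 and 12.10 with LPS, against 10.27, 11.46 and 9.95 without (1.51 ± 0.34, adjusted p = 0.0108, or 1.96 without unstimulated control replicate 2). None of these groups overlapped.

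Trim56, a ligase linked to the cytosolic DNA sensing pathway, had the smallest rise of the 12 in both genotypes. It averaged 10.06 ± 0.26 with LPS and 8.94 ± 0.13 without in ΔTrspM (1.11 ± 0.29, adjusted p = 0.0239 in limma). In control BMDMs it measured 10.26, 10.34 and 9.65 with LPS, against 8.88, 9.67 and 8.62 without (1.03 ± 0.29, adjusted p = 0.0335), and the groups overlapped through unstimulated control replicate 2. Both calls were fragile. That in ΔTrspM was lost without any of the 3 unstimulated ΔTrspM arrays or replicates 1 and 2 of the LPS-stimulated ones (adjusted p = 0.0568 to 0.0765). That in control BMDMs was lost without unstimulated control replicate 1 or 3, unstimulated ΔTrspM replicate 1, or LPS-stimulated control replicate 1 or 2 (adjusted p = 0.0501 to 0.13). Without unstimulated control replicate 2 both were kept, at 1.11 (adjusted p = 0.01 in limma) in ΔTrspM and 1.34 (adjusted p = 0.00702) in control BMDMs. The replicate block also kept both (adjusted p = 0.00708 in ΔTrspM and 0.0102 in control BMDMs).

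**Figure D3:**
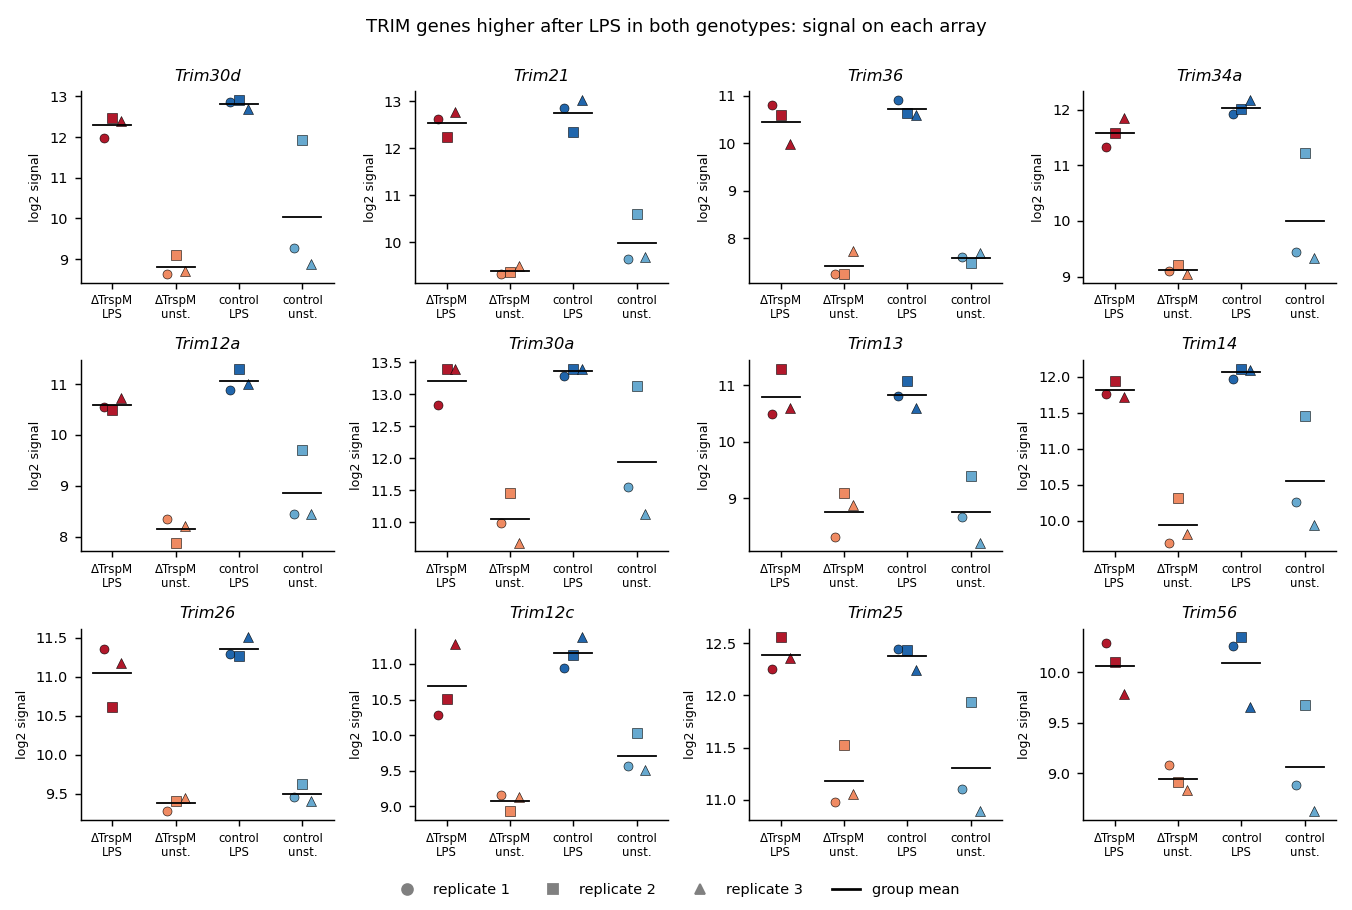
Log2 signal (vertical axis, quantile-normalized signal plus 16) on each array for the 12 TRIM genes higher after LPS in both genotypes, with the replicates as circles, squares and triangles and group means as lines. Unstimulated control replicate 2 (light blue square) is the highest of its group for every gene shown except Trim36. It lies more than 1 log2 unit above the mean of the other 2 arrays for Trim30d, Trim30a, Trim34a, Trim12a and Trim14.

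Trim24 and Trim28, 2 of the 4 TRIM genes with a PHD finger and bromodomain, fell in both genotypes, beside 8.51% of all genes in ΔTrspM and 8.54% in control BMDMs. Without unstimulated control replicate 2 only Trim24 of the 4 was called in either genotype, with Trim28 at an adjusted p of 0.0593 in ΔTrspM and 0.0723 in control BMDMs. Trim24, a coregulator of nuclear receptors, measured 6.87, 6.49 and 6.83 with LPS, against 8.43, 8.02 and 8.14 without in ΔTrspM, and 6.89, 6.54 and 6.10 with LPS, against 8.36, 7.93 and 8.57 without in control BMDMs. Every LPS array was more than 1 log2 unit below every unstimulated array. The fold change was -1.47 ± 0.25 (adjusted p = 0.00281 in limma) in ΔTrspM and -1.78 ± 0.25 (adjusted p = 0.000842) in control BMDMs. Trim28, the corepressor of KRAB zinc-finger proteins, averaged 11.15 ± 0.39 with LPS and 11.93 ± 0.08 without in ΔTrspM (-0.78 ± 0.24, adjusted p = 0.0456) and 11.02 ± 0.32 with LPS and 11.85 ± 0.16 without in control BMDMs (-0.83 ± 0.24, adjusted p = 0.0353). Trim33, which acts on SMAD signalling, averaged 9.86 ± 0.05 with LPS and 10.18 ± 0.12 without in ΔTrspM (-0.32 ± 0.17, adjusted p = 0.247), and 9.91 ± 0.09 with LPS and 9.92 ± 0.19 without in control BMDMs. Trim66, the testis-expressed relative, was dim at 4.96 ± 0.67 with LPS and 5.68 ± 0.04 without in ΔTrspM and 5.47 ± 0.48 with LPS and 5.54 ± 0.26 without in control BMDMs, and did not pass.

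Trim65, which ubiquitinates the RNA sensor MDA5, also fell. It measured 6.06, 4.82 and 6.14 with LPS, against 7.73, 7.82 and 7.97 without in ΔTrspM (-2.17 ± 0.36, adjusted p = 0.00234 in limma). In control BMDMs it measured 5.78, 6.15 and 6.79 with LPS, against 7.69, 7.48 and 8.05 without (-1.50 ± 0.36, adjusted p = 0.0157). The groups did not overlap, and the lowest value came from the dimmest array. Trim59, a membrane-anchored member that proliferating cells express, measured 8.42, 7.33 and 8.42 with LPS, against 10.85, 9.41 and 11.04 without in ΔTrspM (-2.38 ± 0.61, adjusted p = 0.0219). In control BMDMs it measured 8.06, 7.66 and 8.58 with LPS, against 10.04, 8.52 and 10.94 without (-1.73 ± 0.61, adjusted p = 0.0804), and the groups overlapped. Replicate 2 was the lowest of each group for Trim59, and in the fit blocked on replicate number the control fall passed too (adjusted p = 0.00278). It also passed without unstimulated control replicate 2 (-2.39 ± 0.54, adjusted p = 0.0149).

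The other falls were of less than 1.1 log2 units. Trim16, which marks damaged membranes for autophagy, fell by 1.09 ± 0.24 (adjusted p = 0.00973 in limma) in ΔTrspM and by 0.88 ± 0.24 (adjusted p = 0.0277) in control BMDMs. Trim27, a ligase of endosomal trafficking, fell by 0.90 ± 0.24 (adjusted p = 0.0252) in ΔTrspM and by 0.87 ± 0.24 (adjusted p = 0.0297) in control BMDMs. Trim44, which lacks the RING finger and carries a ubiquitin-binding zinc finger, fell by 0.87 ± 0.21 (adjusted p = 0.0154) in ΔTrspM and by 0.93 ± 0.21 (adjusted p = 0.0102) in control BMDMs. A second Trim44 probe set averaged higher with LPS, and the mean of the gene's 3 probe sets had a fold change of 0.04 in ΔTrspM. Trim35, a ligase studied in blood cells, passed in ΔTrspM (-0.64 ± 0.18, adjusted p = 0.0367), with -0.57 ± 0.18 (adjusted p = 0.0571) in control BMDMs, and Trim41, which binds protein kinase C, passed in control BMDMs (-0.82 ± 0.21, adjusted p = 0.0232), with -0.66 ± 0.21 (adjusted p = 0.0573) in ΔTrspM. No difference between the genotypes in these falls was shown, since the interaction had an adjusted p of 1 for each. In the fit with the replicate block 11 genes were lowered in each genotype, in place of 8 in ΔTrspM and 7 in control BMDMs. The added calls in ΔTrspM were Trim41 (adjusted p = 0.0479), Trim37 (0.0184) and Trim47 (0.00507), and those in control BMDMs were Trim35 (0.0281), Trim59, Trim37 (0.0214) and Trim47 (0.00222).

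The count of lowered genes depended on single arrays. Of the 8 in ΔTrspM 4 were called without unstimulated ΔTrspM replicate 1, without replicate 3 or without LPS-stimulated ΔTrspM replicate 2, and 5 without unstimulated ΔTrspM replicate 2 or LPS-stimulated ΔTrspM replicate 3. Of the 7 in control BMDMs 2 were called without unstimulated control replicate 3 or LPS-stimulated control replicate 2, 3 without unstimulated control replicate 2 or LPS-stimulated control replicate 1, and 4 without unstimulated control replicate 1. In the settings that kept 3, another TRIM gene was called besides them. The call of Trim28 in ΔTrspM was lost without any unstimulated array of either genotype, LPS-stimulated control replicate 1 or LPS-stimulated ΔTrspM replicate 2 or 3 (adjusted p = 0.0563 to 0.146), and that in control BMDMs without any unstimulated control array, unstimulated ΔTrspM replicate 1 or 2 or LPS-stimulated control replicate 1 or 2 (0.0513 to 0.119). That of Trim27 was lost in ΔTrspM without replicate 1 or 3 of the unstimulated or 2 or 3 of the LPS-stimulated ΔTrspM arrays (0.0504 to 0.0896), and in control BMDMs without replicate 2 or 3 of the unstimulated or 1 or 2 of the LPS-stimulated control arrays (0.0564 to 0.117). In ΔTrspM the call of Trim35 was lost without unstimulated control replicate 1, any unstimulated ΔTrspM array or LPS-stimulated ΔTrspM replicate 2 or 3 (0.0541 to 0.118), that of Trim59 without unstimulated ΔTrspM replicate 1 or 3 or LPS-stimulated ΔTrspM replicate 2 (0.0821 to 0.0847), and that of Trim44 without unstimulated ΔTrspM replicate 2 (0.0654). In control BMDMs the call of Trim16 was lost without any control array (0.0522 to 0.0911), that of Trim41 without any unstimulated control array or LPS-stimulated control replicate 2 or 3 (0.0514 to 0.0785), and that of Trim65 without unstimulated control replicate 3 or LPS-stimulated control replicate 1 or 2 (0.0531 to 0.0652). The calls of Trim24 in both genotypes, of Trim16 and Trim65 in ΔTrspM and of Trim44 in control BMDMs were kept whichever array was left out.

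**Figure D4:**
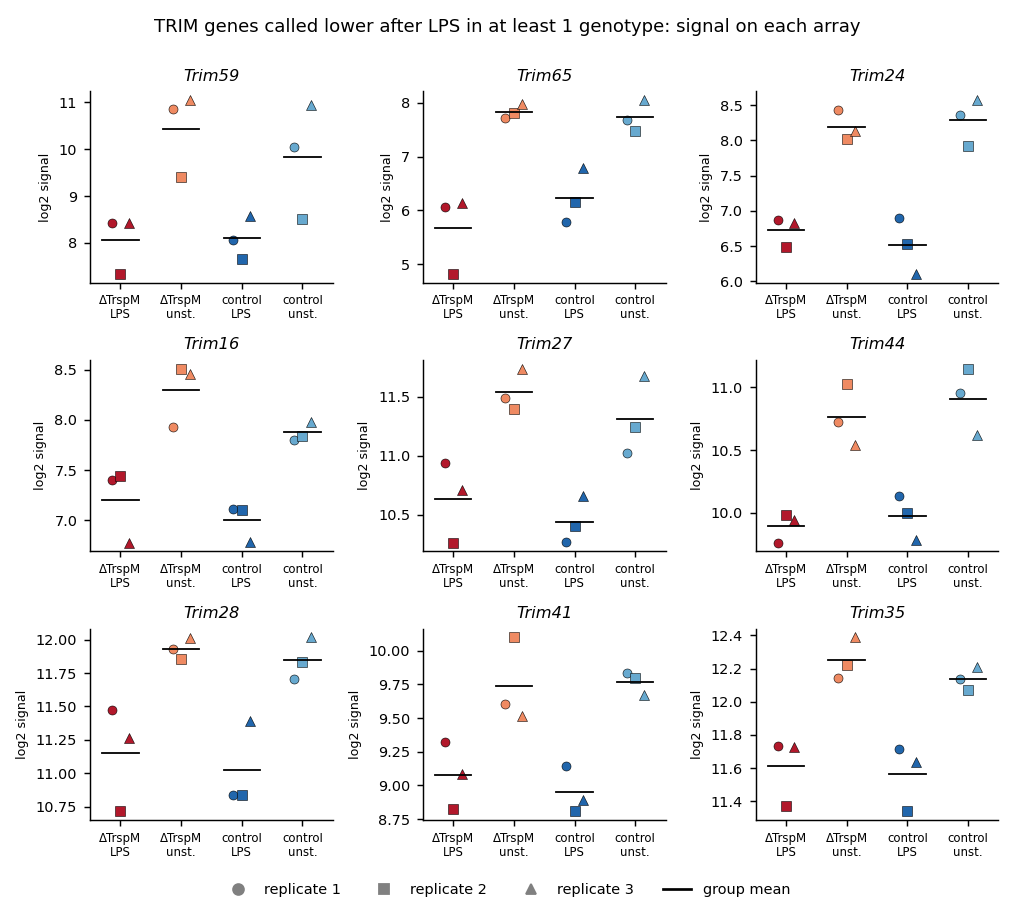
Log2 signal (vertical axis, quantile-normalized signal plus 16) on each array for the 9 TRIM genes called lower after LPS in at least 1 genotype, drawn as in the plot of the raised genes. LPS and unstimulated arrays of the same genotype do not overlap, except for Trim59 in control BMDMs. Trim59 has its lowest value in each group on replicate 2.

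No member with NHL repeats passed the test in either genotype. Trim3, a brain-expressed ligase, averaged 9.35 ± 0.24 with LPS and 8.71 ± 0.16 without in ΔTrspM (0.64 ± 0.22, adjusted p = 0.0786 in limma) and 9.43 ± 0.24 with LPS and 8.80 ± 0.31 without in control BMDMs (0.63 ± 0.22, adjusted p = 0.0839). Trim32, mutated in a human limb-girdle muscular dystrophy, averaged 7.99 ± 0.33 with LPS and 8.28 ± 0.43 without in ΔTrspM and 7.58 ± 0.35 with LPS and 8.26 ± 0.53 without in control BMDMs. Trim2, which acts on neurofilament protein in neurons, averaged 5.70 ± 0.41 with LPS and 6.47 ± 0.36 without in ΔTrspM and 6.45 ± 0.65 with LPS and 6.35 ± 0.11 without in control BMDMs, and its 6 probe sets did not move together. Trim71, a stem cell factor, lay near the floor at group means of 4.48 to 5.02.

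Of the 4 TRIM proteins known by other symbols, Pml rose in both genotypes and Mefv in control BMDMs. Pml, the scaffold of nuclear bodies, averaged 10.46 ± 0.41 with LPS and 7.78 ± 0.03 without in ΔTrspM (2.68 ± 0.38, adjusted p = 0.000958 in limma) and 11.02 ± 0.06 with LPS and 8.29 ± 0.94 without in control BMDMs (2.73 ± 0.38, adjusted p = 0.000795). Mefv, which encodes the inflammasome sensor pyrin, measured 10.39, 11.60 and 9.97 with LPS, against 7.82, 9.32 and 7.66 without in ΔTrspM (2.38 ± 0.80, adjusted p = 0.0682), and 10.73, 12.36 and 10.25 with LPS, against 7.46, 10.22 and 7.64 without in control BMDMs (2.67 ± 0.80, adjusted p = 0.044). Replicate 2 was the highest of each group, and in the blocked fit Mefv was called in ΔTrspM as well (adjusted p = 0.00048). Without unstimulated control replicate 2 it was called in both, at 2.38 ± 0.62 (adjusted p = 0.0279) in ΔTrspM and 3.56 ± 0.70 (adjusted p = 0.00721) in control BMDMs. Without the block the control call was lost on leaving out any of 8 arrays (replicates 1 and 3 of either unstimulated group, replicates 1 and 2 of the LPS-stimulated controls and replicates 1 and 3 of the LPS-stimulated ΔTrspM group), at adjusted p-values of 0.052 to 0.165. The microtubule-associated pair Mid1 and Mid2 did not pass, with fold changes of -0.81 and -0.23 in ΔTrspM and -0.78 and -0.01 in control BMDMs.

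The interferon-stimulated genes rose with LPS as a list, and the other lists of signalling partners rose in part, where 7.29% of all genes were higher in ΔTrspM and 7.09% in control BMDMs. All 26 measured interferon-stimulated genes were higher after LPS in ΔTrspM (median 4.41), and 22 of 26 in control BMDMs (median 3.55), or 26 of 26 (median 4.48) without unstimulated control replicate 2. Oasl1 (6.61 in ΔTrspM and 5.53 in control BMDMs), Ifit1 (6.75 and 4.83) and Gbp2 (5.92 and 4.89) were among the raised. Of 22 measured genes of RIG-I and TLR signalling 9 were higher and 1 lower in ΔTrspM and 11 higher and 2 lower in control BMDMs (medians 0.66 and 0.75), or 11 higher and 1 lower in ΔTrspM and 11 higher and 0 lower in control BMDMs without that array, with Ifih1, the MDA5 sensor that Trim65 modifies, up by 4.28 in ΔTrspM and 3.48 in control BMDMs and the adaptor Ticam1 up by 1.84 in ΔTrspM and 1.20 in control BMDMs. Of 20 ubiquitin and ISG15 conjugation genes 7 were higher and 0 lower in each genotype (medians -0.04 in ΔTrspM and 0.17 in control BMDMs), among them the conjugating enzyme Ube2l6 (2.18 in ΔTrspM and 1.95 in control BMDMs), the activating enzyme Uba7 (2.18 and 1.68), the ligase Herc6 (3.82 and 3.30) and the ubiquitin editor Tnfaip3 (3.37 and 3.02).

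Of 24 measured E3 ligases and ligase partners of other families 13 were higher and 1 lower in ΔTrspM (54.2% and 4.17%), and 13 were higher and 2 lower in control BMDMs, with medians of 1.18 in ΔTrspM and 1.19 in control BMDMs. Peli1 rose by 2.92 in ΔTrspM and 2.67 in control BMDMs, Rnf31, the catalytic subunit of the linear ubiquitin complex, by 2.28 and 2.11, Birc2 by 2.07 and 1.93, and Parp9 by 3.20 and 2.36. Of 11 autophagy genes that TRIM proteins work with, 1 was higher and 1 lower in ΔTrspM, Irgm1 at 3.42 and Tfeb at -1.67, and 1 was higher and 3 lower in control BMDMs, or 1 lower without unstimulated control replicate 2 (medians -0.08 in ΔTrspM and -0.14 in control BMDMs).

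No TRIM gene differed between the genotypes at an adjusted p under 0.05, whether unstimulated, after LPS, averaged over both or in the interaction, and the methods' t-test called 0 in the comparisons it covers, unstimulated and after LPS. Over all genes limma called 0 in unstimulated BMDMs and 2 after LPS, both lower in ΔTrspM (0.011% of all genes). At an unadjusted p under 0.05, Trim46 alone was higher in unstimulated ΔTrspM BMDMs (1 gene, beside 1.12% of all genes) and 3 TRIM genes were lower (beside 1.27%). After LPS 2 were higher, Trim17 and Trim63 (beside 3.58%), and 1 was lower, Trim2 (beside 2.19%). Over the mean of both stimuli 2 were higher, Trim17 and Trim63 (beside 2.98%), and 4 were lower, Trim34a, Trim12c, Trim12a and Trim5 (beside 1.89%), while 0.0055% and 0.0165% of all genes passed the adjusted threshold. In the interaction 0 TRIM genes had an unadjusted p under 0.05, where 1.69% of all genes did with a larger and 1.36% with a smaller response in ΔTrspM. The median log2 difference over the family, ΔTrspM minus control, was 0.01 unstimulated and -0.07 after LPS, beside 0.04 over all genes in both. By sign 30 were higher and 28 lower when unstimulated, where 56.5% and 43.5% of all genes were, and 22 were higher and 36 lower after LPS, where 55.3% and 44.7% were. The genotypes did not overlap when unstimulated for 2 higher genes, Trim46 and Trim17 (beside 4.16% of all genes), and 5 lower genes, Trim21, Trim34a, Trim12c, Trim12a and Trim39 (beside 3.17%), and after LPS for 1 higher gene, Trim63 (beside 5.37%), and 5 lower genes, Trim14, Trim30d, Trim34a, Trim12a and Trim69 (beside 3.77%).

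Before LPS the chromosome 7 paralogues averaged lower in ΔTrspM than in control BMDMs, and the size of this depended on 1 control array. Over the 7 the median difference was -0.71, with 6 below 0. Without unstimulated control replicate 2 the median was -0.29, still with 6 of 7 below 0. The 26 interferon-stimulated genes had a median difference of -1.07 with all arrays, and 13 were above and 13 below 0 without that one. The 3 members lower at an unadjusted p under 0.05 were Trim5, Trim12a and Trim12c.
Trim12a measured 8.35, 7.88 and 8.21 in unstimulated ΔTrspM BMDMs, against 8.44, 9.70 and 8.43 in unstimulated controls. These groups did not overlap, but their nearest values were close. The difference was -0.71 ± 0.31 (unadjusted p = 0.0448, adjusted p = 1 in limma), and -0.29 (unadjusted p = 0.214) without control replicate 2. Trim12c differed by -0.63 ± 0.27 (unadjusted p = 0.0378, adjusted p = 1) and by -0.47 (unadjusted p = 0.139) without that array, and Trim5 by -0.68 ± 0.27 (unadjusted p = 0.0274, adjusted p = 1) and by -0.43 (unadjusted p = 0.128) without it. Trim30d (-1.22 ± 0.60), Trim30a (-0.89 ± 0.43) and Trim34a (-0.88 ± 0.41) had larger differences with unadjusted p-values of 0.0538 to 0.0677, and -0.28, -0.30 and -0.27 without it.

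After LPS all 7 paralogues averaged lower in ΔTrspM than in control BMDMs, with a median difference of -0.46. By sign 20 of 26 interferon-stimulated genes (median -0.11) and 18 of 22 genes of RIG-I and TLR signalling (median -0.15) were lower too. Of the 10 LPS response genes 4 were lower, and of all genes 44.7%. None of the 7 paralogues passed, and their unadjusted p-values in limma ran from 0.117 for Trim12c to 0.732 for Trim30a. Without unstimulated control replicate 2, which enters these differences through the shared estimate of the spread alone, they were 0.0325 for Trim30d, 0.0359 for Trim12a and 0.0366 for Trim34a, each with an adjusted p of 0.836, and 0.11 or more for the other 4. Taken by replicate number, Trim12a, Trim12c, Trim34a and Trim30d were lower in ΔTrspM in 3 of 3 pairs both unstimulated and after LPS. So were Trim14, Trim21 and Trim39, which are not paralogues, while Trim17, Trim35 and Trim37 were higher in all these pairs. The share of all genes with such a pattern was not counted, so these pairs are a description only. Unstimulated pair 2 includes control replicate 2. For Trim30d the unstimulated difference was -2.83 in pair 2, against -0.65 in pair 1 and -0.19 in pair 3. The fit with the replicate block also called 0 TRIM genes between genotypes. Trim12a measured 10.55, 10.50 and 10.73 in LPS-stimulated ΔTrspM BMDMs, against 10.89, 11.30 and 11.01 in LPS-stimulated controls, a difference of -0.47 ± 0.31 with no overlap. Trim12c differed by -0.46 ± 0.27, Trim34a by -0.45 ± 0.41, Trim30d by -0.54 ± 0.60 and Trim30a by -0.15 ± 0.43.
The rise after LPS of Trim30d differed between the genotypes by 0.69 (ΔTrspM minus control) with all arrays and by -0.26 without unstimulated control replicate 2, and that of Trim30a by 0.74 and by 0.14, each with an adjusted p of 1.

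**Figure D5:**
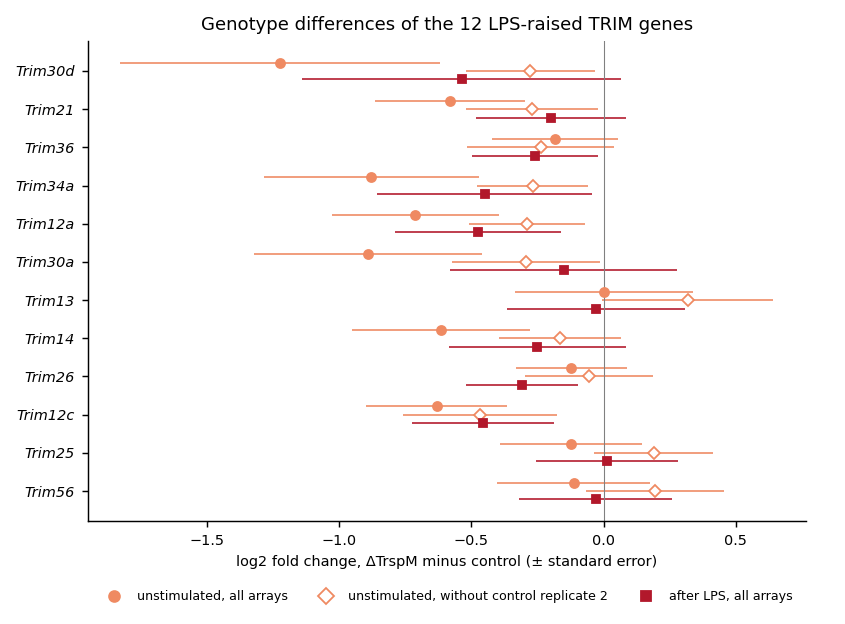
Log2 difference, ΔTrspM minus control (horizontal axis, with the standard error of the fit), for the 12 LPS-raised TRIM genes, in unstimulated BMDMs with all arrays (circles) and without control replicate 2 (diamonds), and after LPS (squares). For Trim30d the unstimulated difference is -1.22 with all arrays and -0.28 without that array, and 0 of the 12 genes passed the test.

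Trim63, the muscle atrophy ligase MuRF1, had the smallest unadjusted p of the family between genotypes after LPS. It measured 4.99, 5.12 and 5.58 in LPS-stimulated ΔTrspM BMDMs, against 4.13, 4.52 and 4.16 in LPS-stimulated controls. The groups did not overlap, and all these values lie near the floor of the scale. The difference was 0.96 ± 0.24 (unadjusted p = 0.0021, adjusted p = 0.5 in limma) after LPS and 0.23 ± 0.24 in unstimulated BMDMs. The summed signal of 10 muscle markers was 454 to 548 in LPS-stimulated ΔTrspM and 312 to 563 in LPS-stimulated control BMDMs, and its part in the Trim63 value was not tested. Trim2 had an unadjusted p of 0.044 for a lower value after LPS in ΔTrspM (-0.75 ± 0.33, adjusted p = 0.858).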

How the data were processed

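RNA of 12 BMDM cultures was hybridised to Affymetrix GeneChip mouse arrays. Normalization by the authors was done with the Expression Console software, and the deposited values are 45101 probe set intensities per array on a linear scale. How probes were summarized is not given in the sources used. All sample columns were read and 0 were left unused. After 64 control probe sets were left out, signals were quantile-normalized over 45037 probe sets, 16 was added and log2 was taken, and the probe set with the highest mean of each single-symbol gene was kept (18193 genes). Symbols came from the platform annotation, and all 58 TRIM genes matched RefSeq entries of GRCm38.p6, with 0 symbols changed. Choosing the brightest probe set on the linear scale changed 1 of the 58, Trim2.

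Groups came from the sample labels, which call the samples biological replicates. Limma 3.58.1 in R 4.3.3 fitted the 4 groups together (8 residual degrees of freedom), and p-values were adjusted by Benjamini-Hochberg across all 18193. Precision is limited by the number of arrays, and with 3 arrays a side an exact permutation test cannot go below 0.1. Errors are SD between arrays for group means and standard errors of the fit for differences. After group means were removed, same-numbered arrays of compared groups correlated at 0.126 to 0.442 in all 12 pairs, over the required 0.1. The sample titles give a replicate number and do not say what it stands for. Replicate 2 had the lowest mean deposited signal in each group, so paired cultures and a shared array effect cannot be told apart. Values are from the fit without a block unless stated. The fit with the replicate number as a block is given where it changes a call.

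The members, gene lists and rules were chosen with earlier results of these data known. Named with values were the members past an adjusted p of 0.05 in any comparison or an unadjusted p of 0.01 between genotypes, the 8 brightest members, the chromosome 7 paralogues, the PHD and NHL classes, Pml, Mid1, Mid2 and Mefv, and up to 4 genes of each other list; the other genes named with an unadjusted p under 0.05 were chosen after their values were seen. The scripts were tested on simulated data. Alternatives were other scalings, pseudocounts of 1 and 64, a filter on dim genes, other choices of probe set, a fit of the compared arrays alone, a robust limma fit with an intensity trend, the replicate block, the methods' t-test and leaving out each array. Calls by the methods' t-test used an adjusted p under 0.05 here, not the unadjusted p under 0.01 of the methods. Leaving out unstimulated control replicate 2 together with LPS-stimulated ΔTrspM replicate 2, and leaving out replicate 2 of all groups, were added after seeing the data.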

Additional observations from a re-analysis of the deposited data

How the results depend on the processing

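No TRIM gene was called between genotypes or in the interaction under any alternative run, and of 42 called LPS fold changes (Pml and Mefv included) 42 kept their call with the replicate block and 19 with no scaling, where 22 lost it and 1 reversed. With no scaling the median of all genes after LPS was -0.73 in ΔTrspM and -0.25 in control BMDMs, and -0.60 for ΔTrspM minus control after LPS. With no scaling 4 TRIM genes were higher and 13 lower in ΔTrspM (23.5% of calls higher, against 60% with quantile normalization and 50%, 12 and 12, with each array centred on its median), and 4 higher and 2 lower in control BMDMs. Trim56 was then at -0.14 in ΔTrspM, with its direction reversed, and Trim44 in ΔTrspM was at 0.038 with the mean of its probe sets. The 12 raised genes in control BMDMs became 7 with only the arrays compared and 4 by the methods' t-test, run at an adjusted p under 0.05 here and below. The 8 lowered in ΔTrspM became 5 with the mean of the probe sets, 5 with only the arrays compared, 2 by the methods' t-test, 11 with the replicate block, 5 without unstimulated control replicate 2 and LPS-stimulated ΔTrspM replicate 2 (a setting chosen after seeing the data) and 4 without replicate 2 of all groups with the block (chosen likewise). The 7 lowered in control BMDMs became 11 with the replicate block, 2 by the methods' t-test and 4 without replicate 2 of all groups with the block. Leaving out each array gave 10 to 13 higher and 4 to 10 lower genes in ΔTrspM and 9 to 12 higher and 2 to 8 lower genes in control BMDMs.

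The median after LPS in ΔTrspM was 0.21 with median centring, -0.49 with no scaling, -0.34 with the filter on dim genes, 0.085 without replicate 2 of all groups with the block, and -0.32 to 0.0072 with each array left out. In control BMDMs it was 0.24 with median centring, -0.055 with no scaling, 0.23 and 0.053 with pseudocounts of 1 and 64, -0.014 with the filter, 0.066 with the mean of the probe sets, 0.15 without those 2 arrays, and 0.0077 to 0.15 with each array left out. Between genotypes it was -0.089 with no scaling, -0.00699 with a pseudocount of 64, -0.089 with the filter, -0.027 with the mean of the probe sets and -0.0079 to 0.059 with each array left out when unstimulated, and -0.25 with median centring and -0.76 with no scaling after LPS (-0.12 to -0.07 with each array left out). The cause of these changes was not tested. Dim members near the floor have shrunken differences, and no detection call was used here.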
